A study of Mus musculus with 374 samples.

Results

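Assays 70 and 81 are a pair of TaqMan assays, 2 of the 81 assays measured by quantitative PCR in 374 single cells of the mouse heart at embryonic day 10.5. The pair was chosen by its co-detection in these cells: either assay had to be more frequent, by 60 percentage points or more, where the other was present than where it was absent, a rule that 26 of the 3240 assay pairs met (0.802%). Those shares describe how the pair was picked and carry no test. The cells came from Nkx2-5Cre/+;ROSA26mTmG/+ embryos and were sorted for green fluorescence, 1 cell per well, after the hearts had been cut into 9 zones. The sort therefore holds cells that express Nkx2-5 or descend from cells that did, and cells of the heart outside that lineage were not collected. The labels name no embryo or litter, so the spread between animals was not measured, and the cells count together as 1 sample.

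The table analysed here gives assay numbers without gene names, and 0 of its 374 column names match a sample label. Neither a gene nor a zone was therefore given to any value below, and no sequence was printed. The labelled zones are the left and right atrium (40 cells each), the atrioventricular canal (47), the left ventricle (47), the right ventricle (36), the left septum (45), the right septum (40), and the proximal (40) and distal (39) outflow tract. In place of zones, values are given by run, meaning each stretch of 96 consecutive column numbers, the number of inputs of 1 array. No label says what a run is, and a difference between runs cannot be told apart from a difference between the zones or arrays they may hold.

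As background, the threshold cycle (Ct) is where a reaction's product first passes a set level, so an early Ct reflects more template, and each cycle corresponds to about a doubling where amplification is efficient. Assays with different primers amplify differently, so the Ct of assay 70 cannot be read against that of assay 81 as a difference in transcript number. The Nkx2-5 locus encodes a homeodomain transcription factor of the early heart. Its Cre lineage contains heart muscle and, in part, the inner lining of the heart and the cushions, which are cell types with distinct transcripts. Assays that read transcripts of 1 cell type are detected together, which gives groups of linked assays in single-cell data.

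A Ct of at most 28 counted as detection, and the 334 cells with at least 10 assays detected were kept. Assay 70 was detected in 174 of the 334 cells (52.1%, exact binomial 95% confidence interval, CI, 46.6 to 57.6%). Assay 81 was detected in 161 cells (48.2%, CI 42.7 to 53.7%). Both were detected in 134 cells (40.1%), assay 70 alone in 40 (11.98%), assay 81 alone in 27 (8.08%) and neither in 133 (39.8%). Most cells thus held both assays or neither, and the intervals, here as elsewhere Clopper-Pearson intervals for counting error only, overlapped for the pair.

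Assay 81 was found in 134 of the 174 cells with assay 70 (77.01%, CI 70.04 to 83.04%) and in 27 of the 160 cells without it (16.9%, CI 11.4 to 23.6%). Assay 70 was found in 83.2% of cells with assay 81 (CI 76.6 to 88.7%) and in 23.1% of the rest (CI 17.1 to 30.1%). The gains were 60.14 and 60.11 points in the 2 directions, which placed the pair 26th of the 26 linked pairs. The pair just inside the threshold beside it was 85 and 87, at 60.71 points. Just outside lay the pairs of assay 39 with 70 at 58.86 points, 56 with 57 at 58.52 and 7 with 70 at 58.52. Assay 70 itself thus had further partners close below the threshold. The median over all pairs was 6.09 points. The pair fell under the threshold with a detection limit of Ct 24 (59.76 points) or with every Ct counted (59.91). It stayed above the threshold at Ct 26 (60.84).

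The runs differed in how often the pair was present. Both assays were detected in 41 of 84 cells of run 1 (48.8%, CI 37.7 to 59.96%), 14 of 79 of run 2 (17.7%, CI 10.04 to 27.9%), 29 of 81 of run 3 (35.8%, CI 25.5 to 47.2%) and 50 of 90 of run 4 (55.6%, CI 44.7 to 66.04%). The interval of run 2 lay below those of runs 1 and 4 and overlapped that of run 3. For assay 81 as a whole the order was run 4 (67.8%), run 1 (59.5%), run 3 (40.7%) and run 2 (21.5%). For assay 70 it was run 4 (63.3%), run 1 (55.95%), run 3 (49.4%) and run 2 (37.97%), a narrower range. Neighbouring runs in either order had overlapping CIs.

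**Figure D1:**
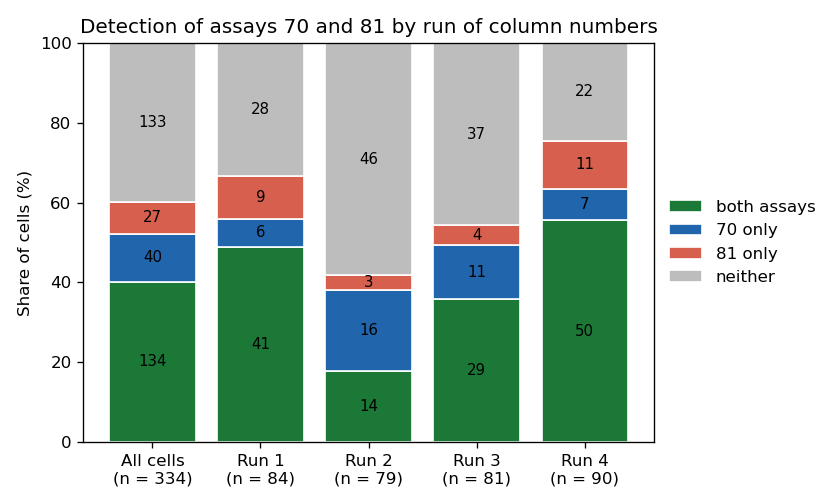
Share of cells (vertical axis, %) with both assays, assay 70 only, assay 81 only or neither, for all 334 kept cells and for each run of 96 column numbers; the figures in the bars are cell counts. Run 2 has 14 cells with both assays and 16 with assay 70 only, whereas in each other run cells with both outnumber those with 1 assay alone.

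Within runs, assay 81 accompanied assay 70 in 41 of 47 cells of run 1 (87.2%, CI 74.3 to 95.2%), 14 of 30 of run 2 (46.7%, CI 28.3 to 65.7%), 29 of 40 of run 3 (72.5%, CI 56.1 to 85.4%) and 50 of 57 of run 4 (87.7%, CI 76.3 to 94.9%). In the opposite direction, the share of cells with assay 81 that also held assay 70 lay between 82% (runs 1 and 4) and 87.9% (run 3), with overlapping CIs in all runs. A cell with assay 81 therefore held assay 70 in most cases in every run, while a cell with assay 70 lacked assay 81 most often in run 2. The smaller of the gains was 62.91, 40.54, 62.74 and 54.39 points in runs 1 to 4. It was above 0 in all 4 runs, which are parts of the cells on which the pair was picked.

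The Ct values of the pair spread differently. In the 174 cells with assay 70, its Ct ran from 15.76 to 27.92 with a median of 20.52 (CI of the median, 20.04 to 21.10) and an SD over cells of 2.56 cycles. In the 161 cells with assay 81, its Ct ran from 18.45 to 27.80 with a median of 21.23 (CI 20.92 to 21.50) and an SD of 1.52 cycles. Assay 70 thus covered the wider range and reached the earlier values. Its median was 20.97, 22.31, 19.15 and 20.41 in runs 1 to 4. That of assay 81 was 22.19, 21.86, 21.17 and 20.30 in the same order. Run 2 was the latest for assay 70 and the run with the fewest cells holding it. Assay 81 was latest in run 1, where it was common, so its Ct and its frequency did not follow the same order.

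Over the pooled cells, the median of assay 70 was later where assay 81 was lacking. Its median Ct was 20.32 with assay 81 (134 cells, CI 19.90 to 20.74) and 21.98 without it (40 cells, CI 20.33 to 23.16), a difference of 1.67 cycles with overlapping intervals. The same difference was 1.68 cycles in run 2 (14 and 16 cells), 1.01 in run 3 (29 and 11 cells) and 1.62 in run 4 (50 and 7 cells). It was -0.48 in run 1, on 41 and 6 cells, so the direction did not hold there. Counted by Ct of assay 70, assay 81 was found in 81.8%, 86.05% and 81.4% of the first 3 of 4 bins of its cells and in 26 of 44 cells of the latest bin, at Ct 22.50 to 27.92 (59.1%, CI 43.3 to 73.7%). Assay 81 was thus least frequent beside the latest values of assay 70, although the CI there overlapped those of the other bins.

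For assay 81 the corresponding medians were 21.17 with assay 70 and 22.16 without it, 0.99 cycles later. This difference was 0.42 cycles in run 1, 1.25 in run 2 and 1.64 in run 3, and it was -0.30 in run 4. After subtracting the median Ct of the other detected assays of each cell, the pooled difference was -0.54 cycles, the opposite direction. By run it was -0.22, 0.73, 0.44 and -1.33 cycles in runs 1 to 4, so the direction differed between runs. For assay 70 the same subtraction left the pooled difference at 1.57 cycles. By run it was -0.65, 2.16, 2.26 and 0.65 cycles.

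In the 134 cells with both assays, the Ct values had a Pearson's r of 0.31 and a Spearman's rho of 0.30, across cells that share arrays. Both values of a cell came from the same pre-amplified material. With every Ct counted, r was 0.67. That setting adds the values above 28, which numbered 11 for assay 70 and 8 for assay 81, mostly in run 1. The change in r therefore rests on few cells. Within runs r was 0.22 in run 1 (41 cells), 0.37 in run 2 (14 cells), 0.10 in run 3 (29 cells) and 0.37 in run 4 (50 cells). Relative to each cell's median Ct it was 0.29 over all cells and 0.39, 0.47, 0.0025 and 0.26 in runs 1 to 4. The Ct of assay 81 exceeded that of assay 70 by a median of 0.66 cycles, with quartiles of -0.75 and 2.27. In 86 of the 134 cells assay 81 was the later of the pair.

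**Figure D2:**
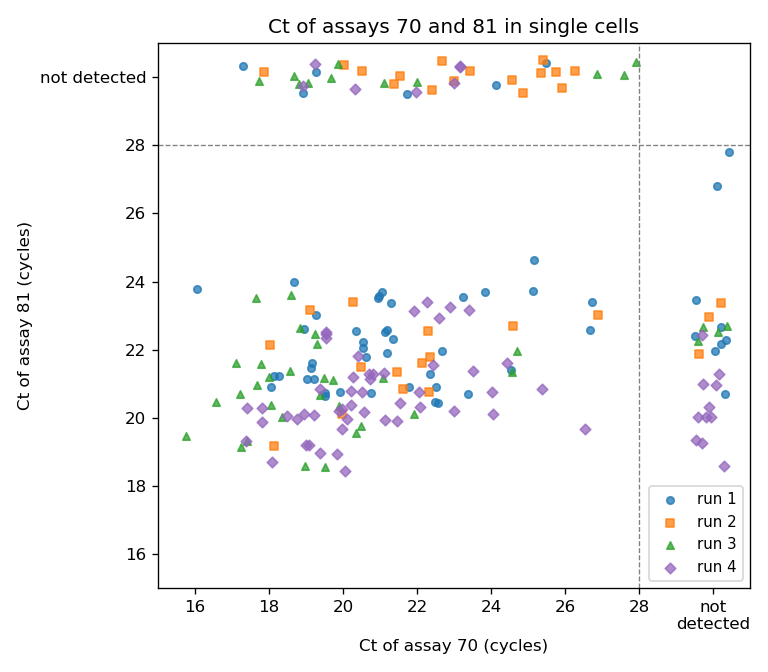
Ct of assay 70 (horizontal axis, cycles) against Ct of assay 81 (vertical axis, cycles), 1 point per cell with at least 1 of the assays, coloured by run; points beyond the dashed lines at Ct 28 are cells in which that assay was not detected, spread slightly at random. The 134 cells with both assays form a broad cloud (r = 0.31), and cells with assay 70 but not 81, along the top, reach later Ct values of assay 70.

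Both assays were next set against assays 27, 53, 56, 57, 85, 86, 87 and 88, the largest group of linked assays in these cells. That group was itself found by co-detection in the same cells. A cell was counted as positive for it with at least 5 of the 8 assays, which 235 cells had (70.4%). Assay 70 lay almost wholly within these cells, which held 171 of its 174 cells (98.3%, CI 95.04 to 99.6%), and 151 of the 174 had all 8 assays of the group (86.8%). Assay 81 reached further, with 139 of its 161 cells positive for the group (86.3%, CI 80.1 to 91.2%) and 22 outside it. Among the 99 cells negative for the group, assay 70 was detected in 3 (3.03%, CI 0.63 to 8.60%) and assay 81 in 22 (22.2%, CI 14.5 to 31.7%).

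Among cells positive for the group, assay 81 was found in 133 of 171 cells with assay 70 (77.8%, CI 70.8 to 83.8%) and in 6 of 64 cells without it (9.38%, CI 3.52 to 19.3%). By run, these counts with assay 70 were 40 of 45, 14 of 30, 29 of 39 and 50 of 57. Without assay 70 they were 3 of 16, 0 of 33, 1 of 8 and 2 of 7. Since 133 of the 134 cells with both assays are positive for the group, these shares are nearly the co-detection by which the pair was picked. The 9.38% rests on few cells and was 19.4% without run 2 and 19.5% at a detection limit of Ct 24. In cells negative for the group, 1 cell had both assays, 2 had assay 70 only and 21 had assay 81 only.

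The share of cells with assay 70 did not climb evenly with the number of the group's assays. It was 0 of 33 cells with 0 of the 8, 1 of 31 with 1, 0 of 13 with 2, 2 of 9 with 3, 0 of 13 with 4, 4 of 14 with 5 and 1 of 13 with 6. It was 15 of 25 cells with 7 assays (60%, CI 38.7 to 78.9%) and 151 of 183 with all 8 (82.5%, CI 76.2 to 87.7%). Assay 81 was detected in 119 of the 183 cells with all 8 (65.03%, CI 57.6 to 71.9%) and in 15 of 25 with 7. From 0 to 6 of the 8, it was detected in 4 of 33, 8 of 31, 6 of 13, 3 of 9, 1 of 13, 2 of 14 and 3 of 13 cells. The CIs of these 7 shares overlapped. Assay 70 was therefore found mainly with the complete or nearly complete group. Assay 81 was most frequent there too, and was also found in cells with fewer of the group's assays.

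**Figure D3:**
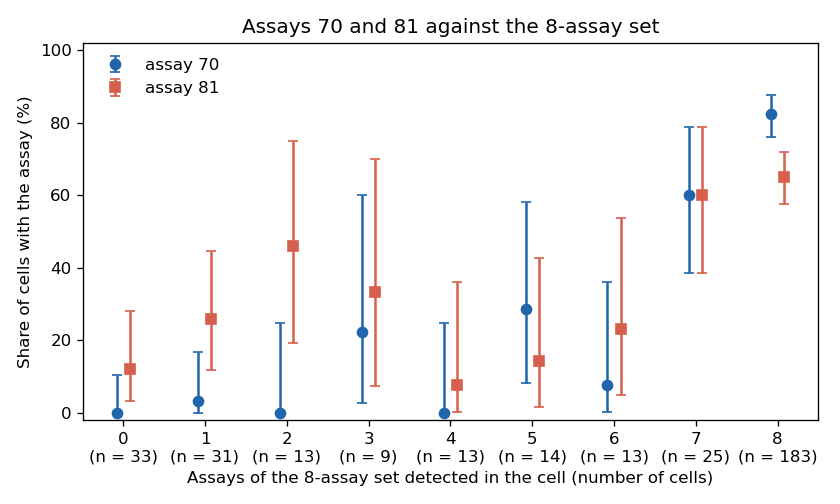
Share of cells with assay 70 (circles) and assay 81 (squares) on the vertical axis (%), by how many of the 8 assays 27, 53, 56, 57, 85, 86, 87 and 88 were detected in the cell (horizontal axis, with the number of cells); bars are exact 95% binomial intervals. Assay 70 stays at or below 4 of 14 cells up to 6 assays and reaches 82.5% at 8, while assay 81 is present at every number of them.

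Over the pooled cells, each of the 8 assays had a positive difference with both members of the pair. The smaller difference over both directions ran from 38.75 points (assay 85) to 56.85 (assay 27) with assay 70, with a median of 54.19. With assay 81 it ran from 22.65 (assay 85) to 35.19 (assay 56), with a median of 28.67. By run, the median of the 8 with assay 81 was 26.65, 2.51, 51.76 and 42.14 points in runs 1 to 4, and in run 2 the values ran from -2.09 (assay 85) to 9.20. With assay 70 the medians were 43.33, 30.61, 71.83 and 73.37, and the lowest single value was 16.33, in run 2. Over all 79 other assays the medians were 13.64 points with assay 70 and 11.55 with assay 81. The group was thus nearer to assay 70 than to assay 81 for each of the 8 assays. Assay 27 was found in 93.3% of cells with both assays and 92.5% with assay 70 only, but in 4 of 27 cells with assay 81 only (14.8%, CI 4.19 to 33.7%), below its 40.6% in cells with neither. Assay 87 had the same pattern, with 99.2%, 97.5%, 14.8% and 48.9%. Assays 53, 86 and 88 were also less frequent with assay 81 only than with neither. Assays 85 (59.26% against 61.65%) and 56 (44.44% against 44.36%) were nearly equal in these 2 classes. Assay 57 was higher with assay 81 only (51.85% against 45.86%), so the pattern did not hold for the whole group.

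The assays most like assay 70 in co-detection, by the smaller difference over 334 cells, were 39 (58.86 points), 7 (58.52), 27 (56.85), 53 (56.70) and 87 (55.73). Those most like assay 81 were 39 (43.62 points), 7 (41.86), 13 (41.70), 35 (40.83) and 37 (38.06). Assays 39 and 7 headed both orders and belong to no linked group. Assay 7 was the most selective: it was detected in 86 of 134 cells with both assays (64.2%, CI 55.4 to 72.3%), 18 of 40 with assay 70 only (45%, CI 29.3 to 61.5%), 0 of 27 with assay 81 only and 2 of 133 with neither (1.50%, CI 0.18 to 5.33%). The 0 of 27 cells allow a share of 11.1% if 3 counts are taken as the limit, and the exact CI reaches 12.8%. Assay 7 thus lay within the cells of assay 70, with or without assay 81.

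With assay 70, assay 7 had a difference of 65.38, 37.96, 85 and 45.61 points in runs 1 to 4, and assay 39 had 39.73, 27.20, 77.56 and 78.79. With assay 81, assay 39 ranged from 11.50 points in run 2 to 59.09 in run 3. The likeness of assay 39 to assay 81 was thus small in run 2, where assay 81 was rarest.

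At the other end, the lowest differences with assay 70 belonged to assays 19 (-31.39 points), 67 (-29.93) and 74 (-27.74). With assay 81 they belonged to assays 74 (-33.88), 2 (-31.98) and 63 (-20.64). Assays 2 and 74 are themselves a linked pair. They were detected together in 19 of 134 cells with both assays 70 and 81 (14.2%, CI 8.76 to 21.3%), 15 of 40 with assay 70 only (37.5%, CI 22.7 to 54.2%), 4 of 27 with assay 81 only (14.8%) and 59 of 133 with neither (44.4%, CI 35.8 to 53.2%). They were therefore least frequent in cells with assay 81. Assay 74 was below 0 with assay 81 in each run, from -35.55 points in run 2 to -9.55 in run 4. Assay 2 was below 0 with assay 70 in runs 1, 3 and 4 and above it in run 2 (5.99 points).

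**Figure D4:**
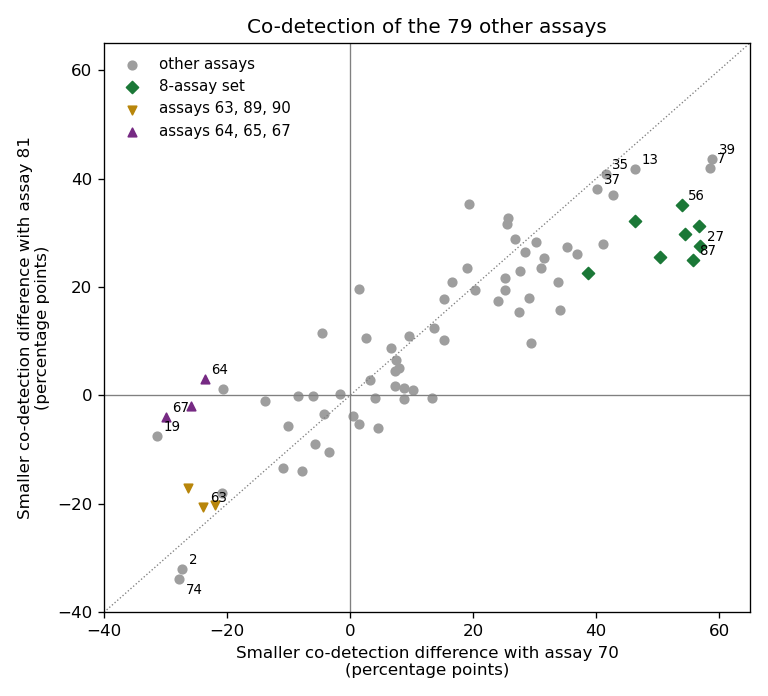
Smaller co-detection difference with assay 70 (horizontal axis, percentage points) and with assay 81 (vertical axis, percentage points) for each of the 79 other assays; the dotted line marks equal values, and selected assays carry their number. The 8-assay group (diamonds) lies to the right of the line, assays 39 and 7 lie highest for both, assays 2 and 74 lie lowest for assay 81, and assays 64, 65 and 67 (upward triangles) lie near 0 for assay 81 and below -20 for assay 70.

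The cells with assay 81 but not assay 70 differed from those with both in other assays. Assays 64, 65 and 67 form a small linked group, counted as positive with at least 2 of the 3. It was positive in 20 of the 27 cells with assay 81 only (74.1%, CI 53.7 to 88.9%), in 6 of 134 cells with both (4.48%, CI 1.66 to 9.49%), in 0 of 40 with assay 70 only and in 28 of 133 with neither (21.1%, CI 14.5 to 28.97%). Assay 64 appeared in 77.8% of cells with assay 81 only and 6.72% of cells with both, and assay 67 in 74.1% and 7.46%. Assay 19, in contrast to its low value with assay 70, appeared in 81.5% of cells with assay 81 only and 24.6% of cells with both.

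Among the 99 cells negative for the 8-assay group, assay 81 was detected in 18 of 42 cells positive for assays 64, 65 and 67 (42.9%, CI 27.7 to 59.04%) and in 4 of 57 cells negative for them (7.02%, CI 1.95 to 17%). By run the positive cells gave 6 of 11, 3 of 7, 1 of 6 and 8 of 18, and the negative cells 1 of 12, 0 of 9, 2 of 28 and 1 of 8. Assay 70 was detected in 0 of the 42 positive cells (7.14% with 3 counts as the limit, exact CI reaching 8.41%). In those 18 cells assay 81 had a median Ct of 21.58 (CI 20.31 to 22.39), which overlapped its 21.17 in cells with both assays (CI 20.86 to 21.38). Relative to each cell's median Ct, the medians were 0.67 cycles in the 18 cells and 1.55 in cells with both. Over all cells with assay 81 only, its median Ct was 22.39 in run 1 (9 cells) and 20.04 in run 4 (11 cells). Those cells include some outside the 18. The 18 cells come from all 4 runs, and their medians by run were not taken. Of the Ct values, only the raw ones were compared by CI. Assay 81 was therefore present in 2 settings, with assay 70 and the 8-assay group, and without them beside assays 64, 65 and 67, among others. Among group-negative cells, 14 of the 79 other assays were at least 30 points more frequent with assay 81 only than with neither. Another 5 were at least 30 points less frequent. The gain of assay 37 was 58.48 points, between 62.48 for assay 64 and 47.62 for assay 65. Group-negative cells with assay 81 only also gave a median of 33 other assays, against 25 with neither. The part of this in the shares was not tested.

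The other small group, assays 63, 89 and 90, held neither member often. Of the 40 cells positive for at least 2 of its 3 assays, 2 had assay 70 (5%, CI 0.61 to 16.9%) and 3 had assay 81 (7.50%, CI 1.57 to 20.4%). In the 294 other cells the shares were 58.5% and 53.7%. Only 4 of the 40 cells were positive for the 8-assay group. In the 36 that were negative for it, each member was detected in 1 cell (2.78%). Over all 99 group-negative cells the shares were 3.03% for assay 70 and 22.2% for assay 81. The part of the 8-assay group in the contrast with the 294 cells was not tested.

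Further assays separated cells within the 235 positive for the 8-assay group. Comparing the 133 cells there with both assays and the 58 with neither, the 5 largest gains were of assays 7 (64.7% against 3.45%), 35 (62.4% against 8.62%), 13 (88.7% against 39.7%), 39 (88.7% against 39.7%) and 36 (58.6% against 15.5%). The largest losses were of assays 74 (20.3% against 68.97%), 75 (6.77% against 44.8%) and 2 (21.1% against 55.2%). Of the 79 assays, 12 were at least 30 points more frequent with both and 3 at least 30 points less frequent. The cells with neither assay also gave fewer of the other assays, with a median of 37.5 and quartiles of 18 and 41.75, against 41 (38 and 43) in cells with both, and the part of this in the gains was not tested. Of the 58 cells with neither, 33 lay in run 2, against 14 of the 133 with both. The part of the runs in these differences was not tested. Over all cells of runs 1 to 4, the smaller difference of assay 75 with assay 81 was -6.59, -25.67, 9.09 and -1.81 points. That of assay 7 was above 0 in each run, from 32.45 to 61.58. The assays named here, like those of the next comparison, were picked by the size of their difference in the same cells.

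The 133 cells with both assays and the 38 with assay 70 only, all positive for the group, differed in fewer assays. Their largest differences were of assays 36 (58.6% against 23.7%, CIs 49.8 to 67.1% and 11.4 to 40.2%), 35 (62.4% against 28.9%, CIs 53.6 to 70.7% and 15.4 to 45.9%) and 54 (57.1% against 26.3%, CIs 48.3 to 65.7% and 13.4 to 43.1%). These 3 were the assays with differences of at least 30 points, and 0 assays differed by that much in the other direction. Run 2 held 16 of the 38 cells with assay 70 only and 14 of the 133 with both. Over all cells of run 2, the smaller differences of assays 36, 35 and 54 with assay 81 were 9.01, 28.27 and -1.71 points. In runs 1, 3 and 4 they ran from 14.39 to 47.18. The part of the runs in the pooled differences was not tested.

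Over the pooled cells, the number of assays a cell gave moved with the pair. Among the 79 other assays, cells with both had a median of 41 detected (range 23 to 63), cells with assay 70 only 40 (12 to 47), cells with assay 81 only 33 (11 to 57) and cells with neither 26 (10 to 60). All counts above 50 lay in run 1. By median, the cells with both were thus the richest and those with neither the poorest, with overlapping ranges. This order did not hold in every run. In runs 2 and 3 the lowest median was that of cells with assay 81 only. It was 28 (3 cells) and 21 (4 cells), against 36.5 and 23 with neither. Over all runs, the median Ct over other detected assays was 19.62 with both, 19.51 with assay 70 only, 20.38 with assay 81 only and 20.54 with neither. The widely detected assay 94 came at a median Ct of 13.48, 13.63, 15.69 and 15.28 in the same order, and assay 50 at 13.59, 13.32, 17.05 and 16.31. Assay 17, in contrast, was earliest in cells with assay 81 only, at 16.23 against 17.66 with both.

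**Figure D5:**
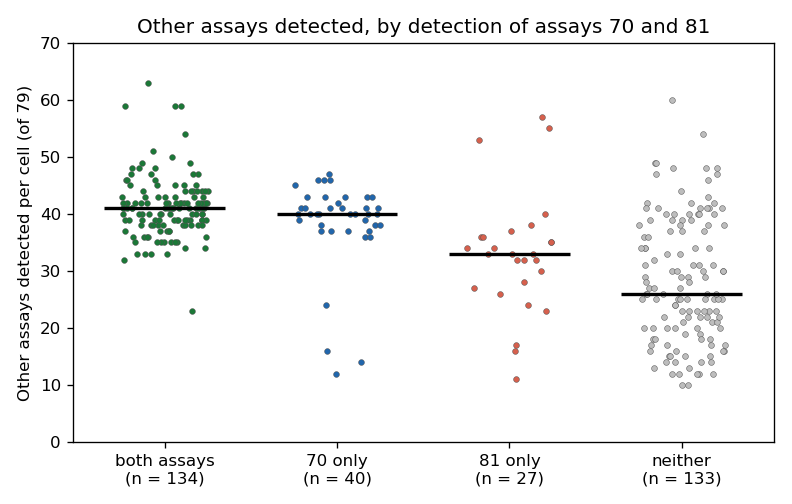
Number of the 79 other assays detected per cell (vertical axis), for cells with both assays, assay 70 only, assay 81 only or neither; each point is a cell and the black bar is the median (41, 40, 33 and 26). Cells with neither assay are spread from 10 to 60, while most cells with assay 70 lie around 40. All counts above 50 are from run 1.

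When cells were divided into 4 bins by the number of other assays, the shares differed between them. With 29 to 38 other assays, assay 81 appeared in 34 of 43 cells with assay 70 (79.1%) and 15 of 45 without it (33.3%). With 39 to 42, the counts were 60 of 77 (77.9%) and 1 of 20 (5%), and with 43 to 63 they were 39 of 49 (79.6%) and 3 of 15 (20%). In the poorest bin, with 10 to 28, assay 70 was detected in 5 of 85 cells and assay 81 in 9, with 1 cell holding both. The smaller gain was 45.74, 51.14 and 47.40 points in the upper 3 bins, each lower than the pooled 60.11, and 5.85 in the poorest bin. These bins divide the same co-detection by which the pair was picked, so they describe it and give no independent support. The part of the number of assays in the link was not tested.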

How the data were processed

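Per the labels' protocols, single cells were lysed and reverse transcribed in their wells, pre-amplified with TaqMan assays and measured on microfluidic 96 by 96 arrays. In the table the authors deposited are raw Ct values for 81 assays and 374 columns, in which 999 marks a reaction with no Ct. For instrument settings and quality filters, nothing is stated in the labels. No normalization was applied. The depth of a PCR reaction is not recorded, and the precision of a share is set by its number of cells (79 to 90 per run).

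The study's design implies comparisons between zones. No column was assigned to a zone, because column names match no label and the order of columns or records was not used in place of names. Assay numbers were not matched to genes. Doublets were not sought.

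The pair, the comparison groups and the lists were chosen with earlier results of these data known. Assays named were the pair, the 8-assay group, both small groups, assays 17, 50 and 94, and the 5 highest and 3 lowest by smaller co-detection difference with each member. Assays 36, 54 and 75 were named after their values were seen. A detection difference is the share of cells with one assay among cells with the other minus that among cells without it. Alternatives were a limit of Ct 24 or 26 or none, cell filters of none and 20 assays, leaving out each run, 4 bins of cells by other assays detected, and centring on the cell's median Ct. The cut on the 8-assay group was varied after the data were seen. The calculation of differences was tested on simulated data. Python 3.11.15, numpy 2.4.6, pandas 2.3.3, scipy 1.17.1 and matplotlib 3.10.9 were used.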

Additional observations from a re-analysis of the deposited data

Results flagged for a closer look

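Both assays gave late values, which the detection limit leaves out of the comparisons above. Whether they reflect template was not tested. Assay 70 had a Ct above 28 in 11 of 374 columns (2.94%, CI 1.48 to 5.20%), and assay 81 in 8 (2.14%, CI 0.93 to 4.17%). These late values ran from 28.07 to 34.37 for assay 70 and from 28.27 to 36.64 for assay 81. Of the 11, 9 lay in run 1, as did 7 of the 8. The other assay of the pair was detected, at a Ct of at most 28, in 3 of the 11 and in 1 of the 8 columns. Columns in which both assays were late are not in these counts. All of the late values came from kept cells. In the 40 columns with under 10 assays, assay 70 was detected in 1, at Ct 25.74, and assay 81 in 0, which allows a share of 7.50% if 3 counts are taken as the limit, with the exact CI reaching 8.81%.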

How the results depend on the processing

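The pair lies so near the link threshold that the choice of settings decides whether it is linked. The smaller difference of 60.11 points became 59.76 at Ct 24, 59.91 with every Ct and 58.19 with at least 20 assays per cell, and 5.85, 45.74, 51.14 and 47.40 points in the 4 bins of cells by other assays detected. It ranged from 58.59 to 61.71 on leaving out a run. At Ct 24, assay 70 was detected in 44.7% of cells, in 75.95% of cells with assay 81, and assay 81 in 19.5% of group-positive cells without assay 70. With at least 20 assays assay 70 was detected in 57.6%. Pearson's r of the Ct values was 0.67 with every Ct, where a few late values, mostly of run 1, enter, and 0.29 to 0.34 on leaving out a run. Median other assays in cells with both were 38 at Ct 24 and 43 with every Ct, and in cells with neither 23 without a cell filter and 31 with at least 20 assays. Relative to the cell's median Ct, the median was 1.17 cycles for assay 70 and 1.51 for assay 81. Both assays were detected in 3.57%, 63.5% and 65.9% of group-positive cells in the first 3 bins. With all 8 assays required for a positive cell, both were detected in 63.9% of positive cells and assay 70 in 15.2% of the others. On leaving out a run, assay 70 ranged from 47.95 to 56.5% of cells and assay 81 from 40.98 to 56.5%, assay 81 with assay 70 from 71.8 to 83.3% and without it from 12.6 to 21.6%, and assay 70 with assay 81 from 82.03 to 84%. Among group-positive cells both ranged from 48.5 to 69.2%, assay 81 with assay 70 from 72.8 to 84.4% and without it from 6.25 to 19.4%, where the highest value came without run 2. Among group-negative cells assay 70 ranged from 1.32 to 4.11% and assay 81 from 17.8 to 29.2%. Median Ct ranged from 20.24 to 21.01 and from 20.86 to 21.79, and median other assays were 41 with both and 25 to 30.5 with neither. The cause of these shifts was not tested. In all, 134 of 170 alternative values stayed within the interval or on the side of the threshold of the reported value. No paired analysis was possible because the columns carry no replicate number and no comparison between labelled groups was made.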
